A study of Mus musculus with 4 samples.

Results

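Collecting duct principal cells were read from the authors' cluster 8, taken as the 4 columns of the deposited table that carry that number. The cluster held 1126 of the 26144 nuclei in 23 clusters. No expression value was used to choose it, but the authors drew its border from the same nuclei, so the genes that set it apart are a description of the cluster and not a test. The nuclei came from mouse kidney cortex, from kidneys perfused and then kept frozen in RNALater, and were read by droplet sequencing of nuclear RNA.

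Each of 4 genotypes, all on the C57BL/6J strain, gave 1 library. The control library was labelled Klf4flox/flox. The Klf4 dEC library was labelled Klf4deltaEC, a deletion of the transcription factor Klf4 aimed at endothelial cells. The Nos3 null library was labelled Nos3-/-, which removes endothelial nitric oxide synthase from the whole animal, and the library labelled Klf4deltaECNos3-/-, called the double library below (Klf4 dEC Nos3 null in the plots), carried both. The study asked what loss of endothelial Klf4 does to the kidney cortex with and without Nos3. The sources used here do not give the Cre driver, the age and sex of the mice or the number of mice in a library, nor whether the Nos3-/- animal carried the floxed allele. The levels in cluster 8 could not check the labels: Nos3 was at 0 in all 4 libraries, and Klf4 was at 0 in the control and in Nos3 null and under the level of 3 counts in the others. Genotype names below are therefore the labels of libraries.

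Principal cells line the connecting and collecting ducts and set the final water and sodium content of urine. Vasopressin binds the receptor Avpr2 on their blood side, raises cAMP, and moves the water channel Aqp2 to the urine side, while Aqp3 and Aqp4 let the water out into the tissue. Aldosterone acts through the receptor Nr3c2, which the enzyme Hsd11b2 shields from glucocorticoids, and drives sodium uptake through the epithelial sodium channel ENaC and the sodium pump.

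A level here is the mean over the nuclei of a cluster of a gene's unique molecules (UMIs) per 10000 UMIs of each nucleus, so it is a share of nuclear RNA and cannot tell less of a transcript from more of all others. Cluster 8 held 297 nuclei of the control library, 347 of Klf4 dEC, 182 of Nos3 null and 300 of the double library, with median depths of 3359, 2645, 1666 and 3529 UMIs per nucleus as recovered from the values. The Nos3 null library was thus the thinnest, and a level of 3 counts was 0.103 there against 0.0314 to 0.0336 in the others. Intervals cover counting error at 95% and nothing else. With 1 library per genotype no difference between libraries has a replicate check and no p-value was computed. Levels in 4 libraries are given in 1 order throughout, which is control, Klf4 dEC, Nos3 null, double library.

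The summed markers of the principal cell were highest in cluster 8 among all clusters. The 12 collecting duct markers summed to 46.7, 56.3, 49.4 and 62 UMIs per 10000, with none at 0 in any library, and to a mean of 46.3 in cluster 17, the next cluster. Aqp2, Aqp4, Rhcg and Mgat4c, the markers supplied with the cluster's label, together reached 32.1, 30.2, 23.2 and 37.3 in cluster 8. Their mean sum in cluster 17 was 11.7. These genes came with the label, so their high sum is a description and no test. Mgat4c, the leading gene of cluster 8, held a mean of 15.4 there and 0.834 in cluster 17. Rhcg, an ammonia transporter, did not mark cluster 8, since its mean was 5.28 there and 8.36 in cluster 17. The medullary collecting duct markers added up to between 2.36 and 5.6, with the urea transporter Slc14a2 and the water channel Aqp5 at or near 0, and Cdh16, a cadherin of the whole tubule, held most of that sum at 3.03, 5.15, 1.88 and 4.96. Aqp2, Aqp4 and Mgat4c each had their highest mean in cluster 8, which describes the label and does not test it.

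Of 2973 genes at 0.5 UMIs per 10000 or more in cluster 8 of every library, 61 were above every other cluster in every library. Only 9 of them exceeded the highest other cluster by a log2 ratio of 1 or more in all 4 libraries, with 0.1 added to each value. Mgat4c, a member of a family of glycan-branching enzymes at chr10:101681487-102391469, plus strand, led, at 20.7, 12.7, 11.2 and 16.9 against a mean of 0.858 in cluster 7, the highest other cluster. Others among the 9 were the noncoding transcript 9230112J17Rik, Il1rapl1 (a synaptic adhesion protein), Fxyd4 (a subunit that tunes the sodium pump), Aqp4, Dab1 (an adaptor of reelin signalling), Mcoln3 (a cation channel of endosomes) and Btc (betacellulin, a ligand of the EGF receptor). Their lowest ratios over libraries ran from 1.09 for Btc to 2.56 for Mgat4c. Just inside the limit stood Btc at 1.09 and just outside it Aqp2 at 0.88. Aqp2 missed it because cluster 17 held a mean of 2.47 against 6.67 in cluster 8.

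**Figure D1:**
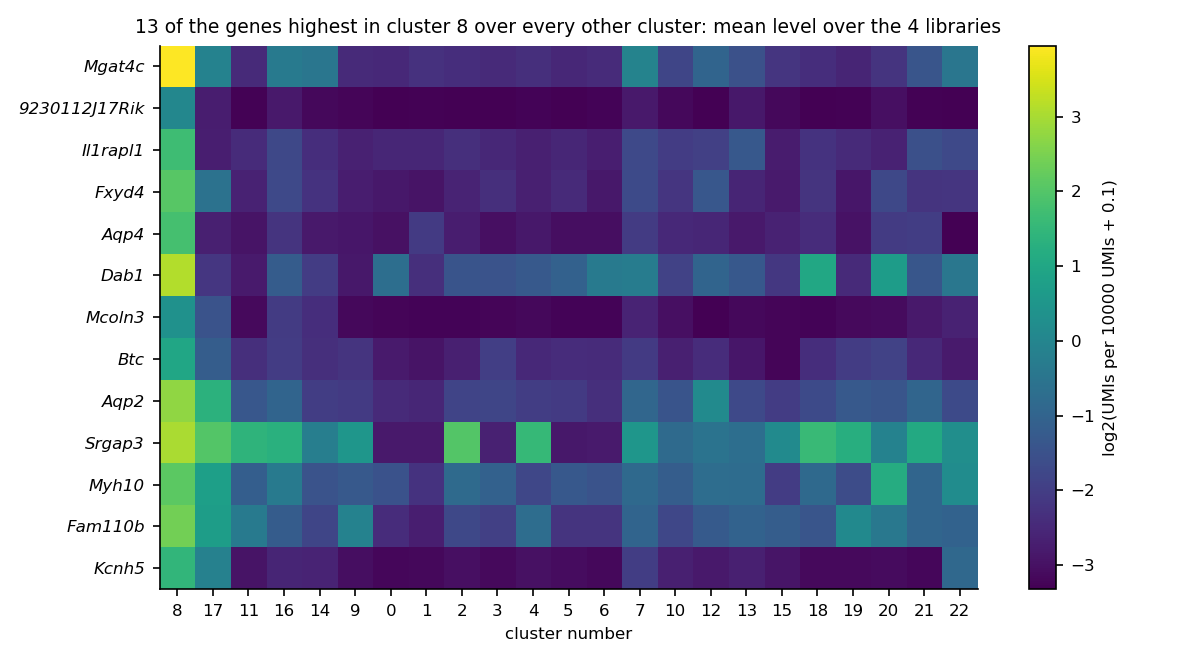
Heat map of 13 of the genes that lead cluster 8 (rows) in all 23 clusters (columns). Colour is the log2 of the level in UMIs per 10000 plus 0.1, averaged over the 4 libraries. Cluster 8 is the highest in every row, cluster 17 is the next brightest for Aqp2 and Fxyd4, and it is dark for Aqp4 and Il1rapl1.

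Cluster 17 was the cluster most like cluster 8. Over 7883 genes, Pearson's r of log2 levels with cluster 8 was 0.937 for cluster 17, 0.880 for cluster 11 and 0.870 for cluster 16, a description in which the libraries and the genes common to all nuclei take part. Against cluster 17, 72 of 3860 genes were past the limit higher in cluster 8 of all 4 libraries and 41 lower. The higher genes were led by Il1rapl1 (3.16 against 0.0533), Dab1 (8.48 against 0.122), Tmtc2 (5.4 against 0.134) and Rbms3 (11.7 against 0.776), with Aqp4 among them (3.37 against 0.0563). The lower genes included the calcium handling genes of the connecting tubule: the calcium channel Trpv5 (0.103 against 2.2), the calcium binder S100g (0.474 against 3.58), the sodium-calcium exchanger Slc8a1 (16.9 against 162) and the vitamin D receptor Vdr (0.717 against 4.75). The ENaC subunits did not have higher means in cluster 8 than in cluster 17: Scnn1a had a mean of 1.74 in cluster 8 and 2.06 in cluster 17, Scnn1b of 6.9 and 9.96, and Scnn1g of 3.44 and 5.67. Fxyd4 of the sodium pump went the other way, at 4.06 and 0.573. Hsd11b2 was at 2.89 and 3.34.

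With cluster 17 set aside, 22 genes rather than 9 stood past the limit over the remaining clusters. Col26a1, a collagen chain, then led with a lowest ratio of 2.60, and Frmpd4, a synaptic scaffold, followed Fxyd4 with 2.50. Against cluster 11, the highest for connecting tubule markers, 211 of 3780 genes were higher and 110 lower, the lower ones led by the thiazide-sensitive cotransporter Slc12a3 (2.05 against 85.5). Against cluster 16, 179 of 3903 genes were higher and 162 lower, the lower ones including the anion exchanger Slc4a9 of base-secreting intercalated cells (0.107 against 10.1), the proton pump subunit Atp6v1g3 (0.106 against 9.13) and the receptor Kit (0.0668 against 12.1).

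Markers of other cell types were well below the clusters where they peaked, and proximal tubule markers stood out in 1 library. Among the neighbouring segments, connecting tubule markers added up to 12.5 to 29.8 against 670 in cluster 11, distal convoluted tubule markers to 10.6 to 17.3 against 348 in cluster 9, thick ascending limb markers to 11.8 to 22.1 against 350 in cluster 4 and thin limb markers to 0.823 to 6.24 against 58.9 in cluster 20. The 12 intercalated cell markers added up to 1.49 to 2.71 against 180 in cluster 14, the 6 podocyte markers to at most 0.968, the 8 endothelial markers to at most 1.24, the 6 stromal markers to at most 0.122, the 7 macrophage and leukocyte markers to at most 0.369, the 5 urothelial markers to at most 0.235 and the 4 cycling markers to at most 0.0394. The 12 proximal tubule markers reached 53.0 in the Nos3 null library against 15.6 in the control library, 15.4 in Klf4 dEC and 11.9 in the double library, and 221 in cluster 5. Lrp2, the endocytic receptor megalin of the proximal tubule, was at 1.75, 1.56, 9.25 and 0.978. Mitochondrially encoded genes added up to 26.4 in the Nos3 null library against 51 to 55 in the other 3, and cytosolic ribosomal protein genes to 6.26 against 9.24 to 12.6. These values stand beside every comparison with the Nos3 null library below, and their part in those results was not tested.

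Between libraries, a gene counts as higher or lower when the log2 ratio of levels, with 0.1 added to each, is 1 or more either way and the higher level is at least 0.5 UMIs per 10000. Fold changes are the plain ratio of levels, without the addition. The 5 comparisons follow from the labels and they share libraries, so their counts are not independent: the control enters 3 of them and the double library 3. A gene of a list reached the count only if it passed the filter, often through the library where it was high, so list counts are read beside the share of all genes past the limit.

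Against the control, the Klf4 dEC library held 133 of 4136 genes past the limit higher (3.22%) and 84 lower (2.03%). Against the control, the Nos3 null library held 358 of 4347 higher (8.24%) and 235 lower (5.41%), a majority that turned to 183 and 204 after the median of the other clusters was subtracted and to 614 and 639 without the filter. Against Nos3 null, the double library held 309 of 4504 higher (6.86%) and 364 lower (8.08%), which turned to 782 and 615 without the filter and to 254 and 109 without genes whose highest other level was in a proximal tubule cluster. Against Klf4 dEC, it held 67 of 4219 higher (1.59%) and 77 lower (1.83%), a split that became 42 and 102 after rescaling by the median ratio. Against the control, it held 95 of 4233 higher (2.24%) and 34 lower (0.803%). Both comparisons with the Nos3 null library counted the most genes. Median log2 ratios over all genes were -0.04, 0.07, 0.05, 0.12 and 0.07 in the same order.

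The water channel of the urine side, Aqp2, was highest in the double library. Its level, with counting intervals, was 3.21 (2.86 to 3.6), 6.88 (6.35 to 7.45), 4.68 (3.93 to 5.53) and 11.9 (11.2 to 12.6). The double library was 3.7-fold higher (95% counting interval 3.25 to 4.22) than the control, past the limit, and 2.54-fold higher than Nos3 null, also past it. Klf4 dEC was 2.14-fold higher (95% counting interval 1.86 to 2.47) than the control, just past the limit, whereas Nos3 null over control had a log2 ratio of 0.53 and the double library over Klf4 dEC one of 0.78, both inside it. The same ratio of the double library to the control had a median of 0.46 over the 19 other clusters with at least 50 nuclei in every library, with 5 of them past the limit higher; in other clusters Aqp2 RNA can also be free RNA, and its part was not tested.

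Of the blood-side channels, Aqp3 had the same order of libraries as Aqp2, and Aqp4 did not. Aqp3 stood at 0.971, 1.27, 1.03 and 3.43, near 1 in 3 libraries and high in the double library alone, which was 3.53-fold higher (95% counting interval 2.79 to 4.52) than the control and 2.71-fold higher than Klf4 dEC. Aqp4 stood at 3.1, 6.57, 0.871 and 2.95, highest in Klf4 dEC and lowest in Nos3 null. Klf4 dEC was 2.12-fold higher (95% counting interval 1.84 to 2.45) than the control, Nos3 null was 3.55-fold lower (95% counting interval 2.37 to 5.57), and the double library differed from the control by a log2 ratio of only -0.07. Of the 9 aquaporins, 3 passed the filter, namely Aqp2, Aqp3 and Aqp4, so list counts only repeat the genes above. In Klf4 dEC over control 2 of them were past the limit higher and 0 lower, beside 3.22% of all genes higher. Their median log2 ratio was 1.06. For the double library over control 2 of the 3 were past the limit higher and 0 lower, beside 2.24% of all genes higher. The median log2 ratio there was 1.72. The other 6 stayed under the filter in every comparison.

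**Figure D2:**
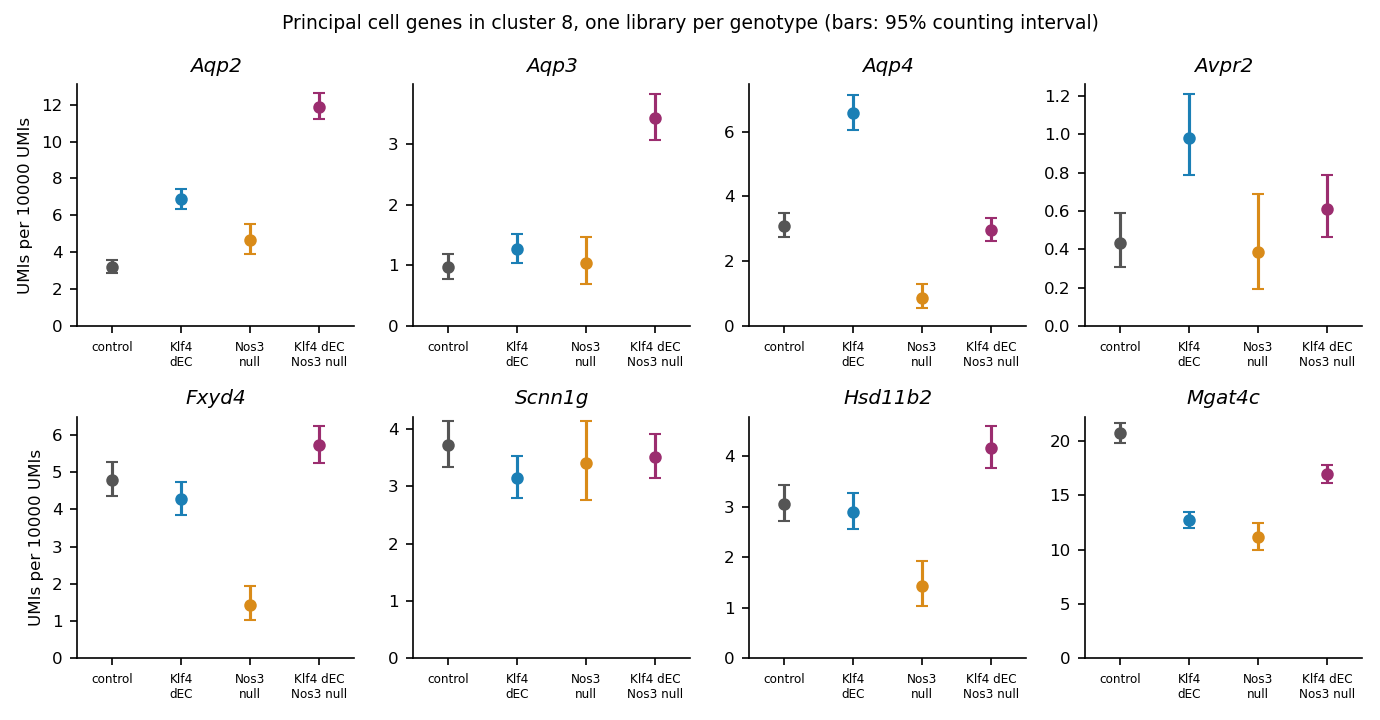
Levels of 8 principal cell genes in cluster 8 (vertical axis, UMIs per 10000; each panel starts at 0) in the 4 libraries (horizontal axis). Points are library means over nuclei and bars are 95% counting intervals. Aqp2 and Aqp3 are highest in the double library, Aqp4 and Avpr2 in Klf4 dEC, and Scnn1g ranges only from 3.14 to 3.71.

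The vasopressin receptor gene Avpr2 was at 0.433, 0.981, 0.386 and 0.608, and only the Klf4 dEC over control comparison put it past the limit, at 2.26-fold higher (95% counting interval 1.54 to 3.38). Crem, which encodes repressors and activators that bind cAMP response elements, was at 0.962, 1.09, 1.01 and 2.71, level in 3 libraries and 2.81-fold higher (95% counting interval 2.2 to 3.63) than the control in the double library. The same Crem ratio was past the limit in 0 of the other 19 clusters. The cAMP-degrading enzyme Pde4b, at 0.272, 0.339, 1.31 and 1.22, was higher in both Nos3 null libraries, and Pde3b, at 6.03, 4.06, 2.03 and 8.21, was lowest in Nos3 null. Of the 20 genes of vasopressin and cAMP signalling, 15 passed the filter, 1 of them past the limit higher and 0 lower, with a median log2 ratio of -0.03 in Klf4 dEC over control. In the double library over control 17 passed the filter, 2 of them past the limit higher and 0 lower, with a median log2 ratio of 0.39. Beside these counts, 3.22% of all genes were higher in Klf4 dEC over control and 2.24% in the double library over control. Of the 16 genes of Aqp2 trafficking, 10 passed the filter in each of these comparisons, and 0 were past the limit. For so few genes that is near the share of all genes.

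A promoter is shown for Aqp2, the water channel of the urine side, with letters of known response elements in capitals. The window is the 250 bases before the RefSeq start on GRCm38.p6, chr15:99578806-99579055, plus strand. The capitals mark the short form of the cAMP response element, TGACG, read on the other strand and starting 211 bases before the start, and the GATA core, AGATAA, also on the other strand, at 202 bases.
Aqp2: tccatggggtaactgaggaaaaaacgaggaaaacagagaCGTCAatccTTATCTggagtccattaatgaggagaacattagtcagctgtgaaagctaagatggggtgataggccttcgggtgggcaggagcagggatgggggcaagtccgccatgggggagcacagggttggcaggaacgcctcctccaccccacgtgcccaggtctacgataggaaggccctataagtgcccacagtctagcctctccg
The short form was found, on either strand, in 17.8% of 32851 promoter windows of this length and AGATAA in 9.99%, so either match is common. The windows of Aqp3, Avpr2, Scnn1b, Scnn1g and Fxyd4 held neither of those motifs, nor the full cAMP element TGACGTCA (1.55% of windows) nor TGGAAA, the core letters of the tonicity element (18.6%). A match is a description of letters and no sign of binding.

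Sodium uptake genes varied less. The ENaC subunits Scnn1a, Scnn1b and Scnn1g were at 1.58, 1.35, 1.98 and 2.05, at 6.69, 4.9, 9.59 and 6.43 and at 3.71, 3.14, 3.4 and 3.51, and none of them was past the limit in any of the 5 comparisons. Nedd4l, the ligase that takes ENaC off the membrane, was at 22, 23.7, 29.1 and 27.4 and likewise past the limit in none of them. Sgk1, the kinase that aldosterone induces and that holds Nedd4l back, was at 0.574, 1.82, 0.898 and 1.09, 3.17-fold higher (95% counting interval 2.31 to 4.42) in Klf4 dEC than in the control. Cnksr3, a scaffold that aldosterone also induces, was at 1.51, 3.27, 0.716 and 1.34 and 2.17-fold higher in the same comparison. The receptor Nr3c2, at 31, 21, 21.8 and 25.4, was not past the limit in any comparison and was highest in the control. In Klf4 dEC over control, of the 14 genes of corticosteroid action 12 passed the filter, 3 of them past the limit higher and 0 lower, with a median log2 ratio of -0.07; the members were Cnksr3, Sgk1 and the clock gene Per1. Of the 12 ENaC genes measured 9 passed the filter, 1 of them past the limit higher and 0 lower, with a median log2 ratio of 0.04. Both counts stand beside 3.22% of all genes higher.

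Sodium pump genes were mostly within the limit. Atp1b1, a beta subunit of the pump, was at 7.11, 12.4, 9.57 and 8.18 and past the limit in none of the 5 comparisons. Fxyd4, at 4.8, 4.28, 1.44 and 5.73, was low in the Nos3 null library alone, 3.33-fold lower (95% counting interval 2.42 to 4.69) than in the control. Its log2 ratio was -1.67. From the highest ratio down, cluster 8 ranked 17 among itself and the 19 other clusters, so some other clusters had lower ratios. Hsd11b2, at 3.06, 2.9, 1.43 and 4.18, was also lowest in Nos3 null, 2.14-fold lower than in the control. Its log2 ratio there was -1.05, beside a median of -1.02 over the other clusters. Of the 16 potassium genes, in Nos3 null over control, 10 passed the filter, 6 of them past the limit higher and 0 lower, with a median log2 ratio of 1.11, beside 8.24% of all genes higher. Among them was the secretory channel Kcnj1 at 1.15, 1.73, 2.65 and 2.02. Of the others, Kcnk5 and Kcnj15 had their highest other level in cluster 6, a proximal cluster, Kcnj10 and Kcne1 in cluster 17 and Kcnma1 in cluster 20. In the double library over control only 5 of the 16 potassium genes passed the filter. Some of the 10 thus passed only through the Nos3 null library, so the count is no support for the list.

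Transcription factors that hold collecting duct identity were mostly level. Mecom, at 56.3, 58.2, 46.4 and 52.3, and Tfcp2l1, at 14.9, 15.9, 19.4 and 16.5, were within the limit in every comparison. Pax8, a factor of the whole nephron and duct, was at 6.6, 27.4, 5.74 and 8.49: Klf4 dEC was 4.15-fold higher (95% counting interval 3.8 to 4.55) than the control, and the double library 3.23-fold lower than Klf4 dEC. Its relative Pax2, at 12.4, 26, 10.2 and 13.3, had the same order of libraries and was 2.09-fold higher (95% counting interval 1.95 to 2.25) in Klf4 dEC. Pax8 was past the limit in 2 other clusters and Pax2 in 1. Elf5, at 1.06, 1.27, 0.131 and 0.944, was low only in Nos3 null, 8.06-fold lower (95% counting interval 2.99 to 31.4) than in the control, from about 4 UMIs. In Klf4 dEC over control, of the 24 factors 17 passed the filter, with a median log2 ratio of 0.14. Past the limit, 3 of them were higher and 0 lower, beside 3.22% of all genes higher.

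Notch signalling keeps principal cells from turning into intercalated cells. Mib1, the ligase that arms Notch ligands, was at 1.98, 2.4, 1.62 and 6.0, level in 3 libraries and 3.03-fold higher (95% counting interval 2.56 to 3.6) than the control in the double library, with 0 other clusters past the limit. Hes1, a target of Notch, was at 0.694, 1.55, 0.866 and 1.84, high in both libraries labelled Klf4 dEC. In the double library over control, of the 20 Notch genes measured 9 passed the filter, with a median log2 ratio of 0.18. Past the limit, 2 of them were higher and 0 lower, beside 2.24% of all genes higher. Of the Wnt, prostaglandin and tight junction genes, 9, 5 and 10 passed the filter in Klf4 dEC over control. In the double library over control 9, 6 and 10 passed it. No member was past the limit in either comparison. For so few genes that is near the shares of all genes, 3.22% and 2.24% higher and 2.03% and 0.803% lower. Median log2 ratios of these lists in Klf4 dEC over control were -0.33, -0.15 and -0.06. The 12 cilium and cystic disease genes tested likewise had none, and Pkhd1, the gene of recessive polycystic kidney disease, was at 43.8, 42.6, 40.1 and 41.4.

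Nitric oxide signals in the kidney through cGMP. Of the 13 genes of nitric oxide and cGMP signalling measured, 2 passed the filter, 0 of them past the limit higher and 0 lower, with a median log2 ratio of -0.55 in Klf4 dEC over control, so the pathway was mostly under the filter in cluster 8. In Nos3 null over control 4 passed it, and 2 were higher, beside 8.24% of all genes. They were the cGMP-degrading enzyme Pde9a, at 0.19, 0.125, 0.791 and 0.252, and the cGMP-dependent kinase Prkg1, at 0.262, 0.368, 0.934 and 0.272, both high in the Nos3 null library alone, through which they passed the filter. Of the 12 KLF factors, 7 passed the filter in Klf4 dEC over control, with a median log2 ratio of 0.45. Past the limit, 2 of them were higher and 0 lower, beside 3.22% of all genes higher. The higher members were Klf5, at 0.307, 1.03, 0.17 and 0.373, and Klf6, at 0.468, 1.14, 0.298 and 0.854. Both are transcription factors related to Klf4 and both were highest in Klf4 dEC. They passed the filter only through that library, so the count is no support for the list.

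The other lists held few members past the limit in Klf4 dEC over control, where 3.22% of all genes were higher. Of the 21 acid-base and ammonia genes, 6 passed the filter, 0 of them past the limit higher and 0 lower, with a median log2 ratio of -0.26. Among the 18 clock genes measured, 9 passed the filter, 1 of them past the limit higher and 0 lower, with a median log2 ratio of 0.29, the member being Per1. For the 28 genes of endothelin, purine and other receptors 13 passed the filter, 2 of them past the limit higher and 0 lower, with a median log2 ratio of 0.22. Those members were Egfr and the renin receptor gene Atp6ap2. In the list of 19 heat shock and unfolded protein genes 10 passed the filter, 1 of them past the limit higher and 0 lower, with a median log2 ratio of 0.16. That member was Xbp1, a factor of the unfolded protein response, at 0.227, 0.793, 0.0817 and 0.494.

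The largest differences of the Klf4 dEC library were in genes outside the water and sodium pathways. Slco4a1, a member of the organic anion transporter family at chr2:180456245-180474867, plus strand, was at 0.316, 4.62, 0.116 and 0.314. It was 14.6-fold higher (95% counting interval 10.0 to 22.1) in Klf4 dEC than in the control and 14.7-fold lower in the double library than in Klf4 dEC, so that only 1 of the 4 libraries was high. Over the other clusters its median log2 ratio was 0.22 against 3.50 in cluster 8, and 3 clusters were past the limit. Ranbp3l, of the Ran-binding protein family at chr15:8967949-9067335, plus strand, was at 4.3, 43.6, 2.66 and 9.23 and 10.1-fold higher (95% counting interval 9.13 to 11.3) in Klf4 dEC than in the control. Ranbp3l was past the limit in 9 other clusters too, at a median of 0.92.

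Akr1b3, the aldose reductase that makes the osmolyte sorbitol, was at 0.339, 3.64, 0.0656 and 0.45, 10.7-fold higher (95% counting interval 7.42 to 16.1) in Klf4 dEC than in the control. Its ratio was also past the limit in 7 other clusters. Nfat5, the factor that drives osmolyte genes under high salt, was at 11.1, 6.91, 7.6 and 9.45 and inside the limit. Slc38a2, an amino acid transporter that Nfat5 can induce, was at 1.08, 2.83, 0.851 and 2.13. Of the 13 osmolyte genes measured 7 passed the filter in Klf4 dEC over control, with a median log2 ratio of -0.03. Past the limit, 2 of them were higher and 0 lower, beside 3.22% of all genes higher.

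Other genes were also high in Klf4 dEC. Hbegf, a ligand of the EGF receptor, was at 0.159, 1.4, 0.345 and 0.219, 8.84-fold higher (95% counting interval 5.12 to 16.4) than the control, and the receptor Egfr was at 4.26, 8.73, 6.43 and 4.4. Btc, another ligand of that receptor, was at 1.02, 1.9, 1.1 and 3.49, inside the limit in Klf4 dEC over control and highest in the double library. Timp3, an inhibitor of matrix proteases, was at 3.16, 18.1, 10.5 and 4.52, 5.74-fold higher (95% counting interval 5.06 to 6.52) than the control, with the Nos3 null library also high. Plaur, the urokinase receptor, was at 0.22, 1.2, 0.0813 and 0.125, and Defb1, an antimicrobial peptide of the distal tubule, at 3.46, 10.4, 2.89 and 2.24, both highest in Klf4 dEC. Kif23, a kinesin of cell division, was at 0.109, 1.3, 0.363 and 0.877, while the cycling markers Mki67, Top2a, Cdk1 and Cenpf added up to at most 0.0394 in any library. Gdf15, a stress-induced cytokine, was at 0.188, 1.05, 0.0944 and 0.636. Of the 20 tubular injury genes, 6 passed the filter in Klf4 dEC over control, with a median log2 ratio of 0.45. Past the limit, 1 of them was higher and 0 lower, beside 3.22% of all genes higher.

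Of the 84 genes lower in Klf4 dEC than in the control, 28 were past the limit lower in no other cluster. Rftn1, a lipid raft protein, was at 0.768, 0.0667, 0.0659 and 0.12, high in the control alone, 11.5-fold lower (95% counting interval 5.02 to 32.6) in Klf4 dEC, and 0 other clusters were past the limit. Lrp4, a receptor of the LDL receptor family, was at 0.567, 0.0438, 0.27 and 0.211, 12.9-fold lower (95% counting interval 4.72 to 50.2) in Klf4 dEC. Col11a1, a collagen chain, was at 0.626, 0.0964, 0.12 and 0.149, again high in the control alone. Klhl14 was at 1.83, 0.39, 0.914 and 0.839 and Nxn, a redox protein, at 1.74, 0.385, 0.636 and 0.766. A different kind of gene headed the list: Loxl2, a lysyl oxidase, was at 0.604, 0, 0.27 and 0.266 and the neighbouring transcript Gm16867 at 0.539, 0, 0.472 and 0.255. Both were at 0 in Klf4 dEC, so the library was at least 18-fold lower for Loxl2 and at least 16-fold lower for Gm16867, with 0 replaced by the level of 3 counts. Loxl2 was past the limit lower in 17 of the 19 other clusters and Gm16867 in 19, so the low values were shared by most or all clusters of that library.

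**Figure D3:**
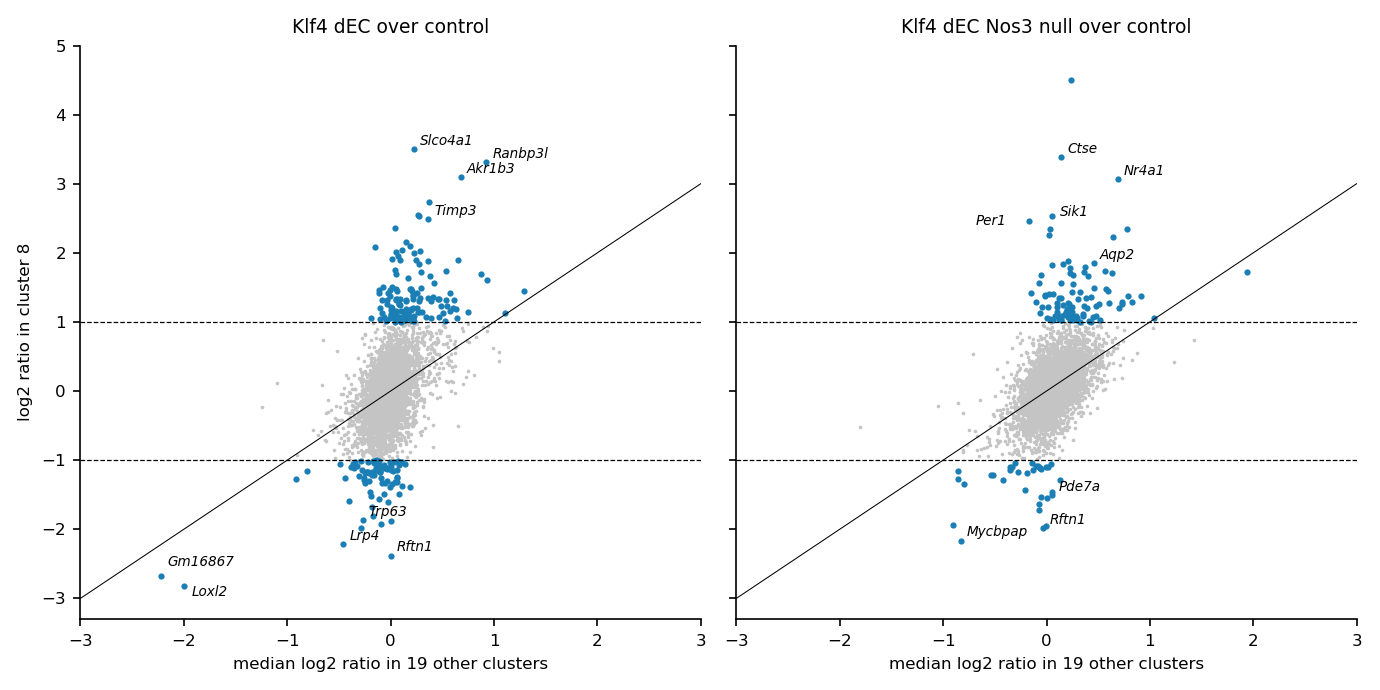
Each point is a gene: the vertical axis is its log2 ratio in cluster 8 and the horizontal axis the median of the same ratio over 19 other clusters, with the ratio of Klf4 dEC to control on the left and of the double library to control on the right. Blue points are past the limit of 1 in cluster 8. Slco4a1 and Ctse lie high above a horizontal value near 0, while Loxl2 and Gm16867 are low on both axes.

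The double library stood apart in another set of genes. Ctse, the protease cathepsin E, was at 0.0216, 0.0297, 0.0591 and 1.17, 54-fold higher (95% counting interval 14.6 to 457) than a control level of about 2 UMIs. Only the double library was high, and the median log2 ratio of Ctse over other clusters was 0.14. Cdk18, a kinase, was at 0.173, 0.196, 0.322 and 1.29, 7.42-fold higher (95% counting interval 4.39 to 13.4) than the control. Fam129a was at 2.44, 2.48, 3.62 and 9.3 and Cpt1a, the gate of mitochondrial fatty acid oxidation, at 1.34, 0.87, 1.87 and 3.25, both highest in the double library.

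Several rapidly inducible genes were high in the double library. Nr4a1, an orphan nuclear receptor, was at 0.0689, 0.884, 0.152 and 1.32, 19.2-fold higher (95% counting interval 8.72 to 51.5) than the control, and high in Klf4 dEC as well. Its relative Nr4a2 was at 0.0645, 0.52, 0 and 0.691, 10.7-fold higher (95% counting interval 4.64 to 30.5) than the control, and at least 6.71-fold higher than in Nos3 null, where it was at 0. Sik1, a kinase that cAMP and salt induce, was at 0.0649, 0.0983, 0.303 and 0.859, 13.2-fold higher (95% counting interval 5.81 to 37.3) than the control. The clock gene Per1 was at 0.17, 1.1, 0.683 and 1.39, above the control in the other 3 libraries and 8.18-fold higher (95% counting interval 4.83 to 14.8) in the double library. Of the 18 immediate early genes, 6 passed the filter in the double library over control and 5 were higher, namely Nr4a1, Btg2, Fosl2, Junb and Egr1, beside 2.24% of all genes. Nr4a1, Btg2 and Fosl2 passed only through the double library, so the count is no support for the list. In Klf4 dEC over control Nr4a1 and Btg2 were higher. In the double library over Klf4 dEC Junb was past the limit higher and Jun lower. In Nos3 null over control Egr1 was higher. Nr4a1 was past the limit in 7 other clusters in the double library over control, Sik1 in 5, Per1 in 1 and Nr4a2 in 0. Fos, Fosb, Atf3, Ier2 and 8 others of the 18 were below the filter in the double library over control. The sources used here do not give the time of day of collection.

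Promoter windows of 3 of these genes are shown because they held cAMP response letters and their levels were higher in both libraries labelled Klf4 dEC than in the other 2. They are the 250 bases before the RefSeq start on GRCm38.p6, at chr15:101266596-101266845, plus strand, for Nr4a1, at chr2:57124004-57124253, minus strand, for Nr4a2, and at chr1:134079156-134079405, minus strand, for Btg2, an antiproliferative gene. Per1 met the same rule, with 1 copy of the short form in each of its 2 windows, and is not shown. Capitals mark TGACG on either strand and, in Btg2, the full element TGACGTCA that begins 166 bases before the start and contains the short form on both strands.
Nr4a1: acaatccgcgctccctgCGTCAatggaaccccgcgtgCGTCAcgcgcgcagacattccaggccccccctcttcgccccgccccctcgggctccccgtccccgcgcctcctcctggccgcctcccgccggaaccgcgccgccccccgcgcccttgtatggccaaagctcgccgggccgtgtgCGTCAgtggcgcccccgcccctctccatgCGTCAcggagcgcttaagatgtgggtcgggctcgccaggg
Nr4a2: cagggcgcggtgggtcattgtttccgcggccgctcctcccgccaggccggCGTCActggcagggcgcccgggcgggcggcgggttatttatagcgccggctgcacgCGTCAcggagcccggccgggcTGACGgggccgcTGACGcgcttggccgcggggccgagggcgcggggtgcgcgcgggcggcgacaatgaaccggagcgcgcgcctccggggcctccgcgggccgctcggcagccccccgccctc
Btg2: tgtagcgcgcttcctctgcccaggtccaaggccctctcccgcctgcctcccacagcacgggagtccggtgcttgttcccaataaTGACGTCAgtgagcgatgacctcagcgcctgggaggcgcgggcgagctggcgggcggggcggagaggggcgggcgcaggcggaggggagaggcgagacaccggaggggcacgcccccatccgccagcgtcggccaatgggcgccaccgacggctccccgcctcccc
Nr4a1 and Nr4a2 each held 4 copies of the short form. The windows were picked for these letters, so their presence is no result. Btg2, the third of the genes shown, was at 0.357, 1.02, 0.28 and 0.908. Windows of Slco4a1, Timp3, Pax2, Pax8, Cdk18 and Gdf15 held none of the 4 motifs sought, and Ranbp3l held TGGAAA alone, 248 bases before its start.

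**Figure D4:**
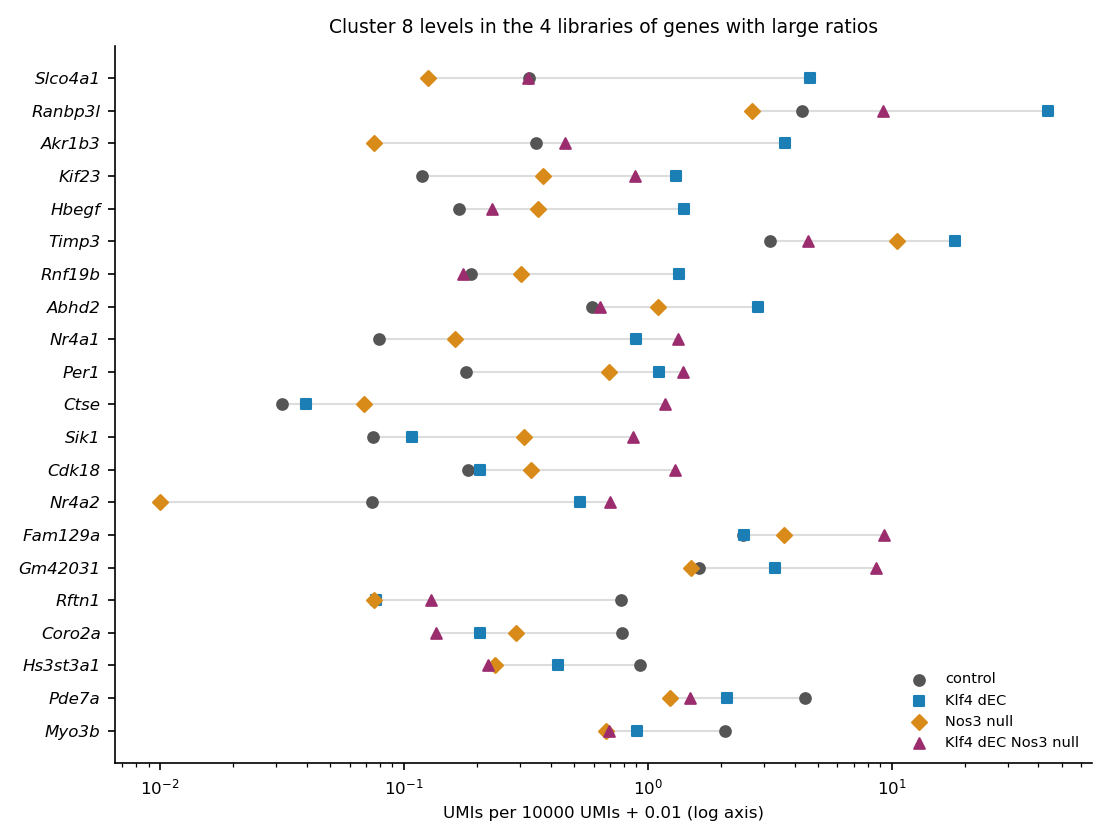
Levels in cluster 8 of 21 genes with large ratios between libraries (rows), on a log axis in UMIs per 10000 plus 0.01, with 1 point per library. Slco4a1 and Akr1b3 have a lone high point for Klf4 dEC, Ctse a lone high point for the double library, and Nr4a2 in Nos3 null is at 0 and drawn at 0.01.

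Against the control, fewer genes were lower in the double library than higher, 34 against 95. Mycbpap was at 0.961, 0.341, 0.398 and 0.137 and Coro2a, an actin-binding coronin, at 0.772, 0.196, 0.278 and 0.126, the latter 6.12-fold lower (95% counting interval 3.3 to 12.4). Pde7a, which degrades cAMP, was at 4.4, 2.11, 1.22 and 1.49, highest in the control and 2.96-fold lower (95% counting interval 2.44 to 3.61) in the double library. Myo3b, an unconventional myosin, was at 2.08, 0.899, 0.666 and 0.686 with the same order, and 0 other clusters were past the limit for it. Of the 34 lower genes, 10 were past the limit lower in no other cluster.

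**Figure D5:**
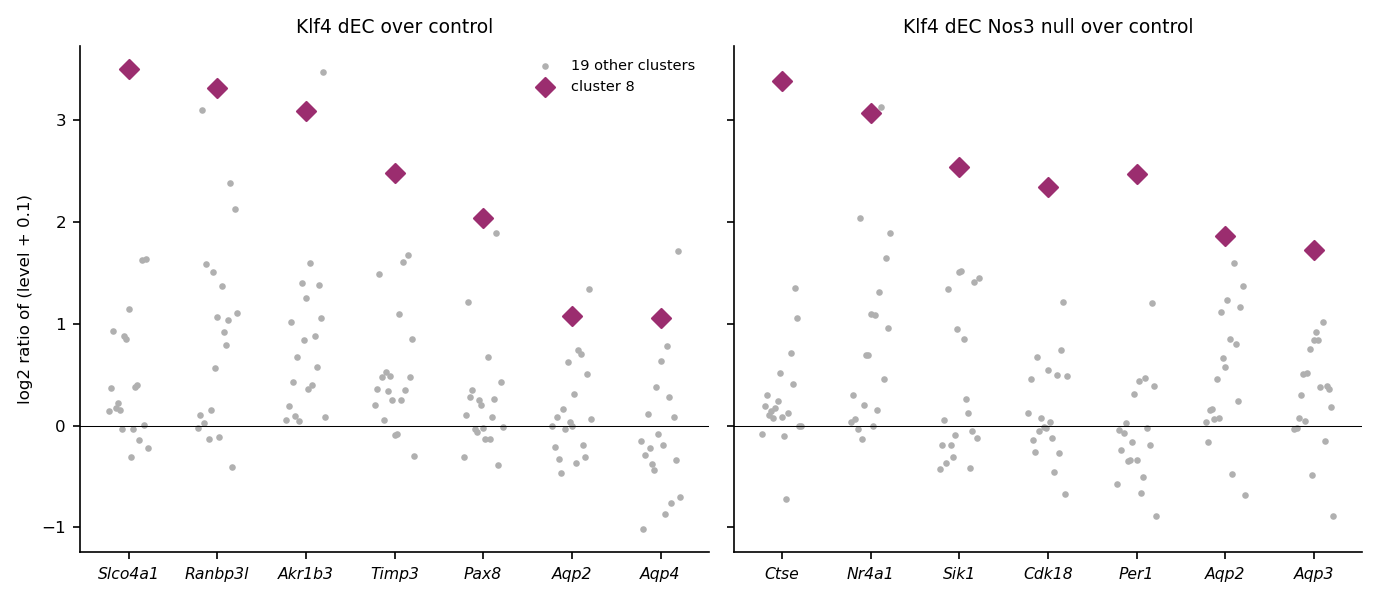
Log2 ratios of 14 pairs of a gene and a comparison (horizontal axis) in cluster 8 (diamonds) and in each of 19 other clusters (grey dots; their sideways spread only keeps them apart), with Klf4 dEC over control on the left and the double library over control on the right. Cluster 8 lies beyond the other clusters for Slco4a1, Ranbp3l and Ctse, whereas 1 other cluster exceeds it for Akr1b3, Nr4a1 and, on the left, Aqp2 and Aqp4.

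Of the 3 comparisons with the control, that of the Nos3 null library counted the most genes, and most of the higher ones were genes whose highest other level was in a proximal tubule cluster (clusters 0, 1, 3, 5, 6 and 12, by their markers). Of the 358 higher genes, 68.7% were led by such a cluster, against 21.7% of all genes tested and 14% of the lower genes. The 12 proximal tubule markers had 8 past the limit higher, beside 8.24% of all genes, and a median log2 ratio of 1.40. All 12 passed the filter here, but only 8 did in the double library over control. Some thus passed only through the Nos3 null library, so the count is no separate support. Fut9, a fucosyltransferase, was at 3.49, 3.29, 26.7 and 2.1, 7.65-fold higher (95% counting interval 6.71 to 8.74) than in the control, and Abcc2, an apical export pump, was 8.11-fold higher (95% counting interval 6.11 to 10.9). Both were past the limit in other clusters as well, 12 and 11 of 19. Across genes, the ratio in cluster 8 had a Pearson r of 0.627 with the median of the other clusters, over genes that are not independent replicates. Without genes led by a proximal cluster, 112 were higher and 202 lower.

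Of the 235 genes lower in Nos3 null, 48 were past the limit lower in no other cluster, and of the 358 higher genes, 41 were past it higher in no other. Chsy3, a chondroitin synthase, was at 2.51, 1.49, 0.281 and 2.48, 8.96-fold lower (95% counting interval 4.5 to 20.8) than in the control, and its median ratio over other clusters was 0.19. Cpne8, a copine, was at 2.86, 4.26, 0.391 and 2.19, low in Nos3 null alone and past the limit in 2 other clusters. Tmtc2, among the genes that set cluster 8 apart from cluster 17, was at 8.41, 4.3, 2.52 and 6.35, 3.34-fold lower than in the control, while its median over other clusters was 0.83. Ubb, which encodes ubiquitin, was at 0.687, 1.12, 0.0191 and 1.19 and rested on about 1 UMI in Nos3 null. It was past the limit lower in all 19 other clusters. Genes higher in Nos3 null with little change elsewhere included Pam, which amidates peptides, at 0.848, 0.906, 4.1 and 0.73 and a median of -0.09 over other clusters.

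In the double library over Nos3 null, 70.1% of the 364 lower genes were led by a proximal cluster, among them Cubn at 0.536, 0.449, 3.93 and 0.254, the partner of megalin. Of the 12 collecting duct markers, 12 passed the filter, 6 of them past the limit higher and 0 lower, beside 6.86% of all genes. Their median log2 ratio was 0.93. The higher members were Elf5, Aqp3, Fxyd4, Hsd11b2, Aqp2 and Aqp4. Elf5 passed the filter only through the double library. Ratios were ranked from the highest down over cluster 8 and the 19 other clusters. Cluster 8 ranked 6 for Aqp2 and 4 for Aqp3, and 1 for Elf5, Fxyd4 and Aqp4. Camk2b, a calcium-dependent kinase, was at 1.41, 2.41, 0.247 and 3.9, 15.8-fold higher (95% counting interval 7.66 to 38.9) than in Nos3 null, and past the limit in 13 of the 19 other clusters, at a median of 1.43. Chsy3 was 8.84-fold higher and past the limit in 1 other cluster. In Klf4 dEC over control the same 12 markers had 3 past the limit higher, Avpr2, Aqp2 and Aqp4, beside 3.22% of all genes. In the double library over Klf4 dEC there was 1 higher, Aqp3, and 1 lower, Aqp4. The shares of all genes there were 1.59% and 1.83%.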

How the data were processed

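Single-nucleus RNA of kidney cortex from 4 libraries, 1 per genotype, was analysed from 1 deposited table of 21046 genes in 92 columns, a column for each of 23 clusters in each library. The submitters' processing notes name Seurat, Cell Ranger and the mm10 build. Their settings, filters on nuclei and treatment of doublets were not given in the sources used here. The deposited signal values are averages by the authors of UMIs per 10000 over the nuclei of a cluster, a reading taken from the values: each column sums to 10000. All columns were mapped by name, with 0 left over. The table holds no barcodes, so nuclei shared between libraries were not analysed here.

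Nuclei per column were recovered as the whole number that divides the reciprocals of the smallest values, which at least 88.2% of them obeyed. Effective UMIs in cluster 8 were 916814, 892583, 291524 and 956812 for the control, for Klf4 dEC, for Nos3 null and for the double library. They gave exact Poisson intervals for levels and exact binomial (Clopper-Pearson) intervals for ratios, at 95%; these cover counting error only. Log2 ratios had 0.1 added, genes needed 0.5 UMIs per 10000 in the higher library, and the limit was a log2 ratio of 1. Where a level is 0, folds are bounds from 3 counts. Motifs were sought on both strands of RefSeq promoter windows (GRCm38.p6), with chromosome 18 left out. Genes were named as members of 22 pathway and 15 marker lists, or by rank: the 15 leading genes of the cluster, the 10 highest levels, and per comparison the 10 highest and 10 lowest ratios and the 5 at each end after subtracting the median of the other clusters. Some genes that these rules name are not reported here. Members and lists were chosen with earlier results of these data known. Of 534 genes sought, 532 had a position in the mm10 annotation. Alternatives changed the pseudocount, filter, scaling and gene set. Recovery of nuclei and intervals was tested on simulated data. Python 3.11.15, numpy 2.4.6, pandas 2.3.3, scipy 1.17.1 and matplotlib 3.10.9 were used.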

Additional observations from a re-analysis of the deposited data

Results flagged for a closer look

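The genes Ncam1, Trp63 and Timp3 differed in opposite directions when the same label was added to different backgrounds, past a log2 ratio of 1 both times. No test of the difference is possible with 1 library per genotype, so the difference was not tested. Ncam1, a neural cell adhesion molecule, was at 0.943, 0.197, 0.196 and 1.0 UMIs per 10000 (order of libraries as in the report), high in the control and the double library. Its log2 ratio was -1.81 in Klf4 dEC over control and 1.89 in the double library over Nos3 null. Grouped by Nos3, the Ncam1 ratio was -1.81 in Nos3 null over control and 1.89 in the double library over Klf4 dEC, which is the same crossing of the same 4 values. Trp63, a transcription factor of basal epithelia, was at 1.53, 0.346, 0.26 and 0.828, with ratios of -1.87 in Klf4 dEC over control and 1.37 in the double library over Nos3 null. Timp3 was at 3.16, 18.1, 10.5 and 4.52 and crossed the other way, with 2.48 and -1.20. Grouped by Nos3, Timp3 also crossed, with 1.70 in Nos3 null over control and -1.98 in the double library over Klf4 dEC. Trp63 crossed in direction in that grouping too, lower in Nos3 null than in the control and higher in the double library than in Klf4 dEC. Each gene rests on 4 levels, 1 for each library.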

How the results depend on the processing

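No paired analysis was possible because each genotype has 1 library and its replicate number names no pair. Counts of genes past the limit moved most with the added constant and the filter. With 0.5 added in place of 0.1 they were 60 for Klf4 dEC over control (217 as reported), 253 for Nos3 null over control (593), 311 for the double library over Nos3 null (673), 55 over Klf4 dEC (144) and 48 over control (129). Without a filter they were 375, 1253, 1397, 272 and 231 in that order, and with a filter of 1 UMI per 10000 they were 134, 336, 390, 83 and 74. After the median ratio of the other clusters was subtracted, Nos3 null over control held 387, the double library over Nos3 null 415 and over control 73. Leaving out genes led by a proximal cluster, an alternative chosen after seeing the data, gave 314 for Nos3 null over control and 363 for the double library over Nos3 null. Genes past the limit over every other cluster in all libraries numbered 5 with 0.5 added and 22 without cluster 17, also chosen after seeing the data, against 9. Rescaling by the median ratio turned 46.5% higher into 29.2% for the double library over Klf4 dEC. Of 880 values of single genes under the alternatives, 0 changed direction and 86 moved by more than their counting interval allows, 52 of them with 0.5 added and 32 with the subtraction. The cause of these shifts was not tested. Depth limits the Nos3 null library most: 3 counts there equal a level of 0.103, and genes near it have wide intervals. Leaving out a library of a comparison leaves no comparison.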

Other observations

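The transcripts with the highest levels in cluster 8 were not transport genes. Malat1, a nuclear noncoding RNA, had levels of 857, 1022, 691 and 683 UMIs per 10000, in the order of libraries used above. Phactr1, a regulator of actin and phosphatase, followed at 47.5, 53, 63.5 and 49.9. Esrrg, an orphan nuclear receptor, was at 29.7, 27.1, 46.5 and 27.2, and Frmpd4 at 48.1, 44.8, 24 and 47.7, so the Nos3 null library was the one that stood away from the others for both.

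Loxl2 and Gm16867, at 0 in Klf4 dEC and low in nearly every other cluster of that library, lie on the same stretch of chromosome 14, at chr14:69609068-69695834, plus strand and at chr14:69363504-69503362, minus strand, on opposite strands.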
